A study of Rattus norvegicus with 30 samples.

Results

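Most genes described here act in mitosis, at the centromere or as kinesin motors, and were examined during early lineage commitment of rat bone marrow mesenchymal stem cells (BMSCs). Members were chosen by gene name. Taken were names beginning with Cenp and a letter, or with Aurk, Spc2, Ncap, Cdc25 or Racgap. Also taken were names beginning with Kif, Bub, Plk, Ska, Smc, Ccna, Ccnb, Cdca, Sgo or Haus and a digit. A further 18 genes were named singly. Kifc1, a kinesin gene, has no digit after Kif and is counted below among other mitosis genes outside the rule. The rule took 67 of the 9999 gene names in the data, and 11 of the 18 singly named genes were listed. The 7 not analysed here were Ndc80, Cdk1, Ttk, Mki67, Prc1, Ect2 and Pttg1. Of the 67 names, 41 (61.2%) reached at least 1 CPM (reads of a gene scaled to the same total in each sample) in at least 3 samples and were tested, as were 43.6% of all names. The 26 others had at most 12 reads and 1.49 CPM in any sample.

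As background, a cell entering mitosis activates cyclin-dependent kinase with cyclins A and B, condensins compact the chromosomes, and kinetochores built on CENP-A chromatin attach them to the spindle. The spindle checkpoint holds the anaphase-promoting complex until all chromosomes are attached, after which Cdc20 allows sister chromatids to part, and mitotic kinesins, the passenger complex and anillin complete cytokinesis. Many of these genes are transcribed in G2 and M phase and repressed in resting cells, whereas other kinesins carry cargo along microtubules in any cell and several SMC proteins serve through the whole cell cycle.

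RNA was sequenced from Sprague Dawley BMSCs at passage 2, taken from the femurs and tibiae of 3 female rats aged 3 weeks. CON denotes undifferentiated cells at 0 h. OS, AD and CH denote cells kept in commercial osteogenic, adipogenic or chondrogenic medium for 3 h, 12 h or 3 d (72 h). There were 3 samples in each of the 10 groups, 30 in all, and each sample pooled 3 cultures. The sources used here differ on the libraries, naming either removal of ribosomal RNA or mRNA, and this was not settled. No group stayed in growth medium beyond 0 h, so time in culture, the change of medium and the inducing agents cannot be told apart. The p-values measure the spread between pooled cultures, since the sources used here do not tie samples to rats. Totals were 3899609 to 9046719 reads per sample (median 6579543), and 3 reads corresponded to 0.332 to 0.769 CPM.

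Several genes that most cells use were listed near 0. Actb was at 0 to 5.39 CPM (median 1.11), Vim at 0 to 1.58 CPM and Ppia at 0 to 0.455 CPM, whereas Rplp0 was at 2070 to 7540 CPM. A low value of a member is therefore given only as listed. CPM is not corrected for length. Higher CPM therefore served only to choose the members given in full and to name the genes with most of a sum. Among BMSC markers, 7 of 10 were listed, with Thy1 at 387 to 8280 CPM, Cd44 at 258 to 2010 CPM and Itgb1 at 3310 to 15500 CPM, but Eng, Pdgfra, Pdgfrb and Vcam1 reached at most 0.663, 1.82, 1.77 and 0.368 CPM. The BMSC marker sum, mostly Itgb1 and Thy1, was 16900, 16100 and 16200 CPM in CON. In OS the sum was 23100, 23200 and 21300 CPM at 3 h, 18800, 18900 and 18900 at 12 h, then 15600, 16200 and 17100 at 3 d. In AD it was 16500, 16700 and 17800 CPM at 3 h, 12500, 9980 and 9410 at 12 h, then 4780, 4650 and 4110 at 3 d, and in CH 15600, 17000 and 15500, then 14000, 16600 and 12800, then 9580, 9110 and 9170. It lay above CON in every sample at OS 3 h and OS 12 h and below CON in every sample at AD 12 h, AD 3 d and CH 3 d, and its part in the results was not tested. The 4 of 11 haematopoietic markers that were listed summed to at most 4.08 CPM in any sample. The 3 of 6 endothelial markers that were listed summed to at most 7.08 CPM. The haematopoietic sum was 0.143, 0.557 and 0 CPM in CON and 3.2, 4.08 and 2.38 CPM at AD 3 d. It lay above CON in every sample at OS 12 h and AD 3 d. The endothelial sum was 3.87, 4.74 and 3.34 CPM in CON and 7.01, 5.46 and 7.08 CPM at OS 3 d. It lay above CON in every sample at OS 3 d and AD 3 h. At OS 12 h, AD 12 h, CH 12 h and CH 3 d every endothelial sum lay below CON. Chondrogenic markers (6 of 7 listed, Sox9 with most of the sum) summed to 46.6, 46.9 and 50.8 CPM in CON. In OS the sum was 99.3, 100 and 103 CPM at 3 h, 20.3, 21.8 and 13.7 at 12 h, then 36.6, 29.6 and 30.7 at 3 d. In AD it was 19.5, 18.6 and 15.6 CPM at 3 h, 6, 5.89 and 5.18 at 12 h, then 15.8, 16 and 19.2 at 3 d, and in CH 622, 628 and 561, then 632, 718 and 564, then 1510, 1280 and 1170. The sum lay above CON in every sample at OS 3 h, CH 3 h, CH 12 h and CH 3 d and below CON in every sample at OS 12 h, OS 3 d, AD 3 h, AD 12 h and AD 3 d, although Acan and Col2a1 reached at most 0.151 and 0.769 CPM. Osteogenic markers (5 of 6 listed, Ibsp with most of the sum at CH 3 d) summed to 2.86, 2.79 and 2.58 CPM in CON, 3.58, 4.84 and 2.86 at OS 3 d and 320, 202 and 221 at CH 3 d. The sum lay above CON in every sample at AD 3 h, AD 12 h, CH 3 h, CH 12 h and CH 3 d and below CON in every sample at OS 12 h and AD 3 d. The part of these markers in the results was not tested either.

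A few samples stood apart from their replicates. Replicate 1 of AD 12 h had 299 tested genes more than 1 log2 unit from the mean of the other samples of its group, compared with 130 and 125 for replicates 2 and 3. Its reads fell in listed genes at 64.6%, compared with 54.2% and 54.3%. Replicate 3 of OS 3 h had 366 such genes, compared with 115 and 133, and replicate 3 of AD 3 d had 425, compared with 180 and 219. The share of reads in listed genes was 38.9% in that AD 3 d sample, compared with 47.9% and 49.0%. Adipogenic markers (5 of 7 listed, Lpl with most of the sum, Pparg at most 2.5 CPM, Adipoq and Fabp4 not listed) summed to 722, 664 and 778 CPM in CON. In OS the sum was 268, 284 and 274 CPM at 3 h, 106, 122 and 130 at 12 h, then 1150, 1040 and 1140 at 3 d. In AD it was 563, 573 and 610 CPM at 3 h, 254, 1090 and 1030 at 12 h, then 1160, 1390 and 3220 at 3 d, and in CH 244, 262 and 239, then 84.8, 80.9 and 97.9, then 14.9, 14.1 and 15.3. It lay above CON in every sample at OS 3 d and AD 3 d and below CON in every sample at OS 3 h, OS 12 h, AD 3 h, CH 3 h, CH 12 h and CH 3 d, and AD 12 h replicate 1 and AD 3 d replicate 3 stood apart in it. The part of these differences in the results was not tested. For members given in full, called folds against CON in the 3 groups concerned are given with and without the sample that stood apart.

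The summed level of the 67 names was above CON at 3 h and 12 h in each lineage and below it at 3 d in OS and AD, which was not tested. Abundant members made up most of the sum. Over the 30 samples, mean CPM was 391 for Kif20a, 287 for Cenpb, 253 for Kif11, 162 for Nuf2 and 147 for Cdc20. The sum was 816, 813 and 788 CPM in CON. It was 2270, 2330 and 2520 CPM at OS 3 h, 3950, 3960 and 3990 at OS 12 h, then 546, 594 and 550 at OS 3 d. In AD it was 2160, 2220 and 2230 CPM at 3 h, 4060, 2350 and 2380 at 12 h, then 513, 513 and 568 at 3 d. All samples at 3 h and 12 h of OS and AD were above the highest CON sample and all samples at 3 d were below the lowest, and the first of the AD 12 h samples exceeded the other two. In CH the sum was 3170, 3210 and 3040 CPM at 3 h, 1120, 1210 and 1110 at 12 h, then 1400, 1290 and 1230 at 3 d, above CON throughout and lower at 12 h than at 3 h. Fewer dividing cells and less RNA of these genes per cell cannot be told apart in such bulk samples. The share of reads in listed genes also differed between groups. It was 53.7 to 54.2% in CON, 63.1 to 68.8%, 68.7 to 71.4% and 56.5 to 59.5% at 3 h, 12 h and 3 d of OS, 60.7 to 63.8%, 54.2 to 64.6% and 38.9 to 49.0% of AD and 61.5 to 66.3%, 61.3 to 67.2% and 60.5 to 67.7% of CH. Scaled to reads in listed genes, a choice made once the values were known, the sum was 1510, 1510 and 1460 in CON, 963, 1050 and 925 at OS 3 d, 1070, 1050 and 1460 at AD 3 d and 1810, 1800 and 1810 at CH 12 h. All groups kept their order against CON on that scale except AD 3 d, where replicate 3 was level with the lowest CON sample. In that sample Cenpb, Plk2 and Smc1a, at 154, 243 and 99.8 CPM, made up most of the sum. Kif20a, Nuf2, Cdc20 and Birc5 were at 1.43, 1.11, 3.01 and 0.317 CPM there.

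**Figure D1:**
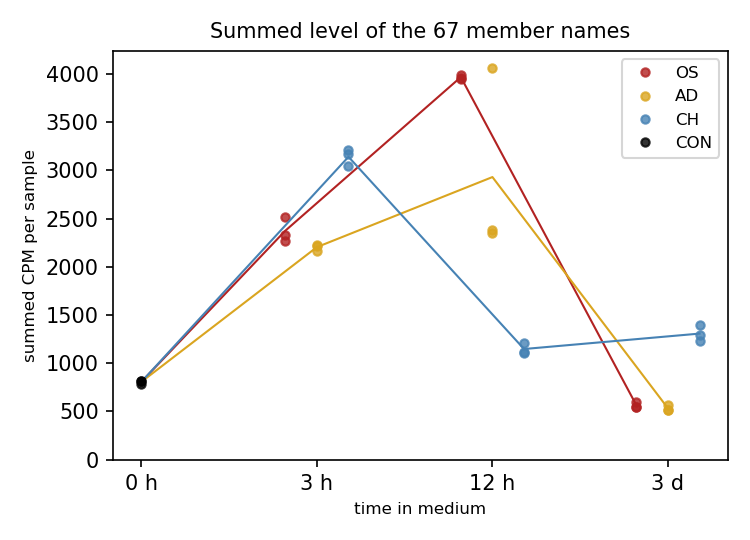
Summed CPM of the 67 member names (vertical axis) in each of the 30 samples by time in medium (horizontal axis), with points for samples and lines through group means. The OS 12 h samples lie at 3950, 3960 and 3990 CPM and the CH 12 h samples at 1120, 1210 and 1110 CPM.

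Each group was compared with CON by limma on log2(CPM + 1), and a gene was called when its log2 fold change was at least 1 in size with an adjusted p under 0.05 over all 4363 genes tested. Folds of low genes are understated on this scale, and shares of all genes are of the 4363. The 9 comparisons share the same 3 CON samples, and the standard error (SE) of a gene, the same in all comparisons, is given once. At OS 3 h, of the 41 members tested, 18 were higher, against 11.7% of all genes, and 0 were lower, against 6.67% of all genes (0 at an unadjusted p under 0.05 and 0 by edgeR). At OS 12 h, 27 were higher, against 14.7% of all genes, and 0 were lower, against 7.15% of all genes (0 at an unadjusted p under 0.05 and 0 by edgeR). At OS 3 d, 0 were higher, against 7.2% of all genes (3 at an unadjusted p under 0.05 and 1 by edgeR), and 10 were lower, against 5.29% of all genes. OS thus had members called higher at 3 h and 12 h and lower at 3 d. The member median log2 fold change was 0.77 against 0.09 over all genes at OS 3 h, 1.52 against 0.09 over all genes at 12 h and -0.30 against 0.08 over all genes at 3 d. Without OS 3 h replicate 3, 18 members were called higher at OS 3 h, with Bub3 (0.93) no longer and Cdca3 (1.24) newly among them.

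At AD 3 h, of the 41 members tested, 20 were higher, against 12.4% of all genes, and 0 were lower, against 6.42% of all genes (0 at an unadjusted p under 0.05 and 0 by edgeR). At AD 12 h, 20 were higher, against 8.14% of all genes, and 0 were lower, against 5.55% of all genes (0 at an unadjusted p under 0.05 and 0 by edgeR). At AD 3 d, 2 were higher, against 6.19% of all genes, and 12 were lower, against 9.08% of all genes. AD had the same directions, with higher calls at 3 h and 12 h and mostly lower calls at 3 d. The AD median was 0.99 against 0.15 over all genes at 3 h, 0.92 against 0.15 over all genes at 12 h and -0.22 against -0.05 over all genes at 3 d. Without AD 12 h replicate 1, 21 members were called higher at AD 12 h, Kif1b (1.17) being new, and without AD 3 d replicate 3, 2 were higher and 12 lower at AD 3 d.

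At CH 3 h, of the 41 members tested, 23 were higher, against 13.1% of all genes, and 0 were lower, against 4.88% of all genes (0 at an unadjusted p under 0.05 and 0 by edgeR). At CH 12 h, 4 were higher, against 9.44% of all genes, and 0 were lower, against 5% of all genes (1 at an unadjusted p under 0.05 and 0 by edgeR). At CH 3 d, 9 were higher, against 11.6% of all genes, and 2 were lower, against 6.37% of all genes. In CH the calls were mostly at 3 h, and at 12 h the members' share was near that of all genes. The CH median was 1.19 against 0.21 over all genes at 3 h, 0.07 against 0.11 over all genes at 12 h and 0.03 against 0.01 over all genes at 3 d. With median-ratio scaling or edgeR, 1 member was called higher at CH 12 h. At CH 3 d edgeR called 10 higher and 4 lower, and without CON replicate 3 limma called 1 lower. Median-ratio scaling moved the median of all genes by -0.27 to 0.34 log2 units over the 24 comparisons. On that scale the member median was 1.30 at OS 12 h with a shift of -0.25, and -0.02 at CH 12 h with a shift of -0.18, where it changed sign.

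**Figure D2:**
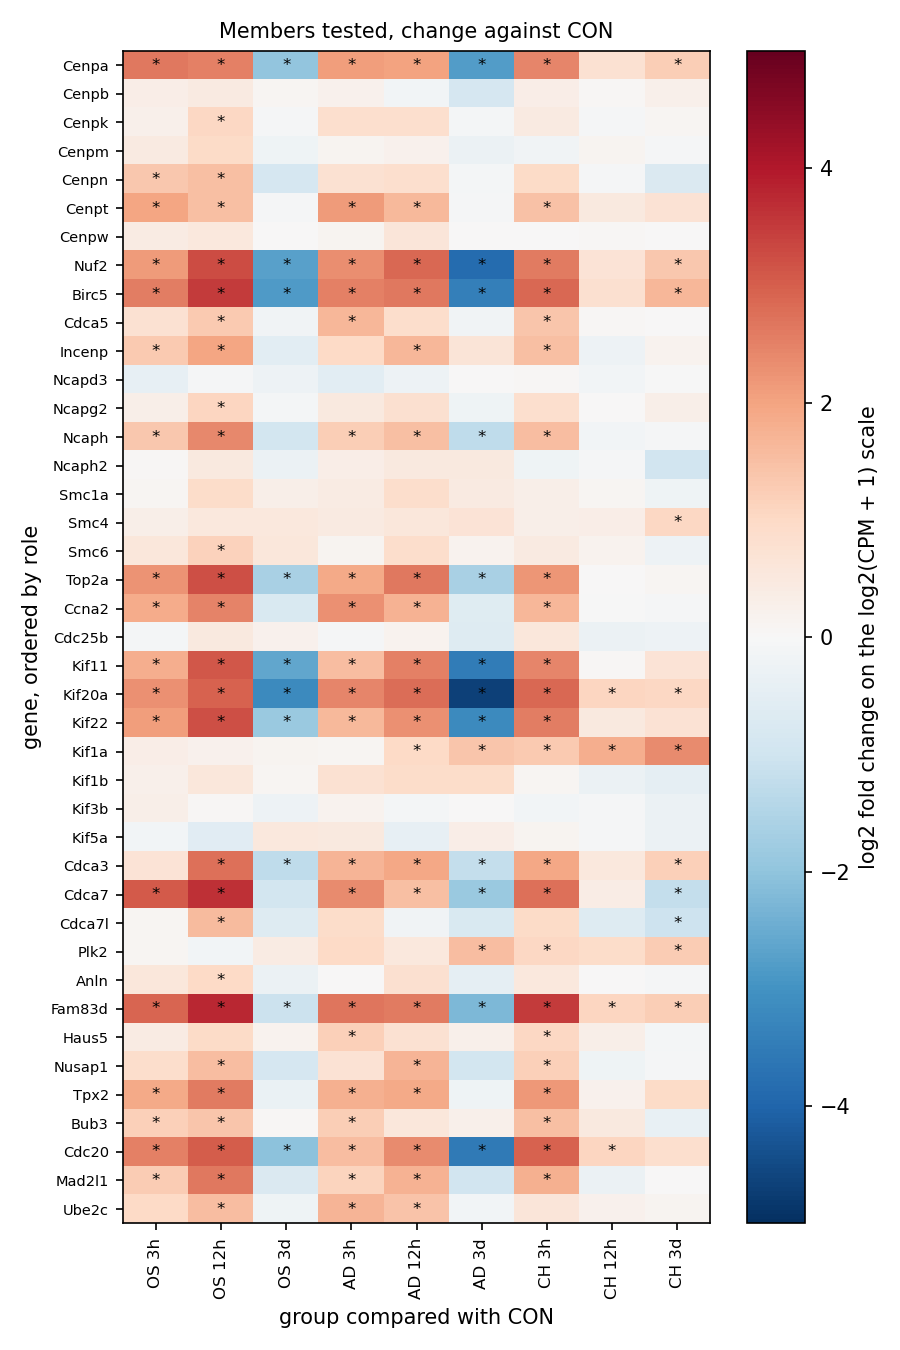
Log2 fold change against CON on the log2(CPM + 1) scale (color) of the 41 members tested (rows, ordered by role) in the 9 groups (columns), with an asterisk where a member was called. There are asterisks for 27 members at OS 12 h and 4 at CH 12 h, and Kif20a at AD 3 d is the lowest value at -4.66.

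The centromere and kinetochore list had 10 names, of which 8 were tested. Here and below, shares of all genes called stand in brackets. Called higher were 4 at OS 3 h (11.7%), 5 at OS 12 h (14.7%), 3 at AD 3 h (12.4%), 3 at AD 12 h (8.14%), 3 at CH 3 h (13.1%) and 2 at CH 3 d (11.6%), and called lower were 2 at OS 3 d (5.29%) and 2 at AD 3 d (9.08%). Cenpa, the histone variant that marks the centromere, was at 7.02, 6.83 and 5.16 CPM in CON, and in OS at 37.9, 38.7 and 59.1 CPM at 3 h, 35.1, 43.3 and 43 at 12 h, then 0.746, 0.78 and 1.05 at 3 d. In AD, Cenpa was at 29.4, 25.6 and 36.1 CPM at 3 h, 44.5, 19.2 and 25.7 at 12 h, then 0.178, 0 and 0 at 3 d. In CH, Cenpa was at 39.1, 43.7 and 33.7 CPM at 3 h, 13.7, 9.82 and 11.4 at 12 h, then 15.9, 16.6 and 15.6 at 3 d. For Cenpa, every sample of CH 3 d and all groups at 3 h and 12 h lay above the highest CON sample, while every sample of OS 3 d and AD 3 d lay below the lowest. The Cenpa OS log2 fold change against CON was 2.64 at 3 h (adjusted p = 6.7e-11, SE 0.23, and 2.43 without replicate 3), 2.50 at 12 h (adjusted p = 1.4e-10) and -1.97 at 3 d (adjusted p = 4e-08). The Cenpa AD log2 fold change against CON was 2.09 at 3 h (adjusted p = 7.7e-09), 2.0 at 12 h (adjusted p = 3e-08, and 1.67 without replicate 1) and -2.79 at 3 d (adjusted p = 2.4e-11, and -2.75 without replicate 3). The Cenpa CH log2 fold change against CON was 2.44 at 3 h (adjusted p = 3.1e-10) and 1.22 at 3 d (adjusted p = 5.9e-05). Nuf2, a subunit of the Ndc80 complex that binds spindle microtubules, was at 47.3, 42.8 and 35.9 CPM in CON, and in OS at 227, 234 and 123 CPM at 3 h, 437, 394 and 407 at 12 h, then 4.92, 4.37 and 7.53 at 3 d. In AD, Nuf2 was at 197, 249 and 200 CPM at 3 h, 395, 259 and 289 at 12 h, then 2.67, 2.48 and 1.11 at 3 d. In CH, Nuf2 was at 259, 252 and 255 CPM at 3 h, 69.3, 64 and 70.8 at 12 h, then 115, 104 and 103 at 3 d. For Nuf2, every sample of CH 3 d and all groups at 3 h and 12 h lay above the highest CON sample, while every sample of OS 3 d and AD 3 d lay below the lowest. The Nuf2 OS log2 fold change against CON was 2.14 at 3 h (adjusted p = 6.9e-10, SE 0.21, and 2.44 without replicate 3), 3.27 at 12 h (adjusted p = 5.1e-14) and -2.72 at 3 d (adjusted p = 6.8e-12). The Nuf2 AD log2 fold change against CON was 2.33 at 3 h (adjusted p = 1.3e-10), 2.86 at 12 h (adjusted p = 2.2e-12, and 2.69 without replicate 1) and -3.83 at 3 d (adjusted p = 2e-15, and -3.58 without replicate 3). The Nuf2 CH log2 fold change against CON was 2.59 at 3 h (adjusted p = 1.3e-11) and 1.34 at 3 d (adjusted p = 3.7e-06). Nuf2 was lower in OS 3 h replicate 3 than in both other samples of that group, and still above CON. Cenpb, a protein that binds centromeric satellite DNA, was at 256, 264 and 271 CPM in CON, and in OS at 268, 267 and 512 CPM at 3 h, 346, 382 and 342 at 12 h, then 285, 293 and 262 at 3 d. In AD, Cenpb was at 318, 279 and 321 CPM at 3 h, 283, 224 and 222 at 12 h, then 140, 148 and 154 at 3 d. In CH, Cenpb was at 350, 351 and 299 CPM at 3 h, 234, 363 and 244 at 12 h, then 353, 319 and 268 at 3 d. For Cenpb, every sample of OS 12 h, AD 3 h and CH 3 h lay above the highest CON sample, every sample of AD 3 d lay below the lowest and the other groups overlapped CON. Cenpb was called in no comparison with CON, and replicate 3 of OS 3 h was its highest value.

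Of 5 names of the spindle checkpoint and anaphase trigger, 4 were tested. Called higher were 3 at OS 3 h (11.7%), 4 at OS 12 h (14.7%), 4 at AD 3 h (12.4%), 3 at AD 12 h (8.14%), 3 at CH 3 h (13.1%) and 1 at CH 12 h (9.44%), and called lower were 1 at OS 3 d (5.29%) and 1 at AD 3 d (9.08%). With single samples left out, moves over 1.5 times gave 1 to 2 at AD 3 d called lower. Cdc20, the activator of the anaphase-promoting complex, was at 38.1, 43.6 and 38.2 CPM in CON, and in OS at 209, 218 and 287 CPM at 3 h, 318, 338 and 340 at 12 h, then 6.27, 9.99 and 11 at 3 d. In AD, Cdc20 was at 124, 111 and 123 CPM at 3 h, 449, 151 and 141 at 12 h, then 3.38, 1.6 and 3.01 at 3 d. In CH, Cdc20 was at 317, 350 and 290 CPM at 3 h, 85.8, 88.5 and 84.1 at 12 h, then 78.7, 75.6 and 63.6 at 3 d. For Cdc20, every sample of CH 3 d and all groups at 3 h and 12 h lay above the highest CON sample, while every sample of OS 3 d and AD 3 d lay below the lowest. The Cdc20 OS log2 fold change against CON was 2.53 at 3 h (adjusted p = 2.2e-09, SE 0.26, and 2.39 without replicate 3), 3.02 at 12 h (adjusted p = 4e-11) and -2.05 at 3 d (adjusted p = 2.3e-07). The Cdc20 AD log2 fold change against CON was 1.56 at 3 h (adjusted p = 1.2e-05), 2.38 at 12 h (adjusted p = 1.2e-08, and 1.85 without replicate 1) and -3.52 at 3 d (adjusted p = 2.7e-12, and -3.60 without replicate 3). The Cdc20 CH log2 fold change against CON was 2.96 at 3 h (adjusted p = 8.9e-11) and 1.09 at 12 h (adjusted p = 0.0011). Cdc20 in AD 12 h replicate 1 was the highest of the 30 samples. The CH 12 h call was not made with median-ratio scaling (log2 fold change 0.86) or edgeR (0.84). Bub3, a checkpoint protein at unattached kinetochores, was at 3.15, 3.76 and 5.16 CPM in CON, and in OS at 9.56, 7.43 and 16 CPM at 3 h, 11, 14.1 and 11.1 at 12 h, then 6.56, 4.21 and 2.41 at 3 d. In AD, Bub3 was at 10.3, 9.91 and 11.9 CPM at 3 h, 8.19, 7.18 and 4.44 at 12 h, then 4.99, 7.63 and 3.01 at 3 d. In CH, Bub3 was at 13.3, 12.8 and 12.8 CPM at 3 h, 3.76, 6.86 and 7.76 at 12 h, then 1.54, 4.2 and 3.34 at 3 d. For Bub3, every sample of OS 12 h and all groups at 3 h lay above the highest CON sample, while the other groups overlapped CON. The Bub3 OS log2 fold change against CON was 1.21 at 3 h (adjusted p = 0.0029, SE 0.32, and 0.93 without replicate 3, not called) and 1.39 at 12 h (adjusted p = 0.00066). The Bub3 AD log2 fold change against CON was 1.24 at 3 h (adjusted p = 0.0024). The Bub3 CH log2 fold change against CON was 1.49 at 3 h (adjusted p = 0.00033). Bub3 passed the test at 3 h in each lineage and at OS 12 h. Mad2l1, the checkpoint protein that holds Cdc20, was at 2.15, 2.51 and 2.43 CPM in CON and 16.4, 20.9 and 23.5 CPM at OS 12 h. Ube2c, the ubiquitin-conjugating enzyme of the anaphase-promoting complex, was at 0.573, 0.139 and 0 CPM in CON and 4.31, 2.36 and 2.53 CPM at AD 3 h. The Mad2l1 log2 fold change by limma was 2.65 at 12 h (adjusted p = 6e-07, SE 0.37) of OS, and every OS 12 h sample lay above CON. Mad2l1 was not called at OS 3 h without OS 3 h replicate 2 (0.94), and at AD 3 h with edgeR (1.15), median-ratio scaling (0.94), pseudocount 0.1 (1.39) or without AD 3 h replicate 3 (1.03). At AD 3 d, Mad2l1 became called lower with pseudocount 0.1 (-2.04) or without AD 3 d replicate 2 (-1.52). Ube2c was called with all samples at OS 12 h, AD 3 h and AD 12 h. It became called at OS 3 h with edgeR (2.22), pseudocount 0.1 (2.55), without CON replicate 1 (1.16) or OS 3 h replicate 2 (1.07). At CH 3 h it became called with pseudocount 0.1 (1.88).

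The chromosomal passenger complex and cohesion protectors had 6 names, of which 3 were tested. Called higher were 2 at OS 3 h (11.7%), 3 at OS 12 h (14.7%), 2 at AD 3 h (12.4%), 2 at AD 12 h (8.14%), 3 at CH 3 h (13.1%) and 1 at CH 3 d (11.6%), and called lower were 1 at OS 3 d (5.29%) and 1 at AD 3 d (9.08%). With single samples left out, moves over 1.5 times gave 0 to 1 at CH 12 h called higher. Birc5, survivin, which brings Aurora B kinase to centromeres, was at 14.3, 21.9 and 12.7 CPM in CON, and in OS at 99.7, 99.4 and 93.2 CPM at 3 h, 182, 183 and 198 at 12 h, then 1.34, 1.4 and 1.36 at 3 d. In AD, Birc5 was at 93.8, 97.6 and 94.9 CPM at 3 h, 158, 84.7 and 85.1 at 12 h, then 0.712, 0.709 and 0.317 at 3 d. In CH, Birc5 was at 116, 129 and 119 CPM at 3 h, 30, 30.9 and 26 at 12 h, then 64.6, 48.9 and 44.5 at 3 d. For Birc5, every sample of CH 3 d and all groups at 3 h and 12 h lay above the highest CON sample, while every sample of OS 3 d and AD 3 d lay below the lowest. The Birc5 OS log2 fold change against CON was 2.54 at 3 h (adjusted p = 3.1e-12, SE 0.19, and 2.57 without replicate 3), 3.48 at 12 h (adjusted p = 1.9e-15) and -2.83 at 3 d (adjusted p = 3.5e-13). The Birc5 AD log2 fold change against CON was 2.51 at 3 h (adjusted p = 3.8e-12), 2.64 at 12 h (adjusted p = 1.9e-12, and 2.35 without replicate 1) and -3.43 at 3 d (adjusted p = 3.5e-15, and -3.30 without replicate 3). The Birc5 CH log2 fold change against CON was 2.86 at 3 h (adjusted p = 2.6e-13) and 1.65 at 3 d (adjusted p = 2.1e-08). Birc5 at CH 12 h lay above CON in every sample but its fold change with all samples did not reach the threshold. Birc5 became called at CH 12 h without CON replicate 2 (1.04). Incenp, the scaffold of the passenger complex, was at 2.86, 1.67 and 3.64 CPM in CON, and in OS at 7.05, 6.32 and 11.3 CPM at 3 h, 14, 9.27 and 17.8 at 12 h, then 1.79, 2.34 and 0.753 at 3 d. In AD, Incenp was at 6.3, 4.88 and 7.58 CPM at 3 h, 9.8, 10.3 and 11.3 at 12 h, then 2.85, 6.21 and 5.7 at 3 d. In CH, Incenp was at 9.44, 8.66 and 9.96 CPM at 3 h, 2.31, 1.87 and 2.06 at 12 h, then 3.33, 3.76 and 2.45 at 3 d. For Incenp, every sample of OS 12 h, AD 12 h and all groups at 3 h lay above the highest CON sample, while the other groups overlapped CON. The Incenp OS log2 fold change against CON was 1.31 at 3 h (adjusted p = 0.00038, SE 0.28, and 1.08 without replicate 3) and 1.97 at 12 h (adjusted p = 9.8e-07). The Incenp AD log2 fold change against CON was 1.66 at 12 h (adjusted p = 2.5e-05, and 1.70 without replicate 1). The Incenp CH log2 fold change against CON was 1.51 at 3 h (adjusted p = 6.5e-05). Incenp was called in no lineage at 3 d against CON. Incenp became called at AD 3 h with pseudocount 0.1 (1.21), without AD 3 h replicate 2 (1.12), CON replicate 1 (1.03) or CON replicate 3 (1.16).

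Among 6 mitotic kinesins that the rule took, 3 were tested, Kif20a, Kif11 and Kif22. Called higher were 3 at OS 3 h (11.7%), 3 at OS 12 h (14.7%), 3 at AD 3 h (12.4%), 3 at AD 12 h (8.14%), 3 at CH 3 h (13.1%), 1 at CH 12 h (9.44%) and 1 at CH 3 d (11.6%), and called lower were 3 at OS 3 d (5.29%) and 3 at AD 3 d (9.08%). With single samples left out, moves over 1.5 times gave 0 to 1 at CH 3 d called higher. The member called at CH 12 h and CH 3 d was Kif20a. Kif20a, a kinesin of the central spindle needed for cytokinesis, was at 104, 113 and 90.8 CPM in CON, and in OS at 475, 491 and 555 CPM at 3 h, 786, 799 and 779 at 12 h, then 11.6, 9.99 and 9.94 at 3 d. In AD, Kif20a was at 540, 557 and 584 CPM at 3 h, 1060, 598 and 587 at 12 h, then 3.74, 4.97 and 1.43 at 3 d. In CH, Kif20a was at 778, 792 and 721 CPM at 3 h, 220, 217 and 221 at 12 h, then 239, 195 and 201 at 3 d. For Kif20a, every sample of CH 3 d and all groups at 3 h and 12 h lay above the highest CON sample, while every sample of OS 3 d and AD 3 d lay below the lowest. The Kif20a OS log2 fold change against CON was 2.30 at 3 h (adjusted p = 1.1e-10, SE 0.20, and 2.23 without replicate 3), 2.93 at 12 h (adjusted p = 3.5e-13) and -3.17 at 3 d (adjusted p = 1.3e-13). The Kif20a AD log2 fold change against CON was 2.44 at 3 h (adjusted p = 3.1e-11), 2.80 at 12 h (adjusted p = 2.2e-12, and 2.52 without replicate 1) and -4.66 at 3 d (adjusted p = 9.8e-18, and -4.28 without replicate 3). The Kif20a CH log2 fold change against CON was 2.89 at 3 h (adjusted p = 7.8e-13), 1.09 at 12 h (adjusted p = 5.9e-05) and 1.04 at 3 d (adjusted p = 0.00011). Kif20a at AD 3 d had the largest fall against CON of any member tested on the log2(CPM + 1) scale, which understates falls of lower members such as Cenpa. Its CH 12 h call was not made with median-ratio scaling (0.86) or edgeR (0.83), and its CH 3 d call was not made with edgeR (0.97), without CH 3 d replicate 1 (0.95) or without CON replicate 3 (0.95). Kif11, the kinesin that slides spindle poles apart, was at 84.7, 81.8 and 80.5 CPM in CON, and in OS at 326, 372 and 207 CPM at 3 h, 750, 674 and 737 at 12 h, then 11.3, 12.5 and 14.2 at 3 d. In AD, Kif11 was at 241, 260 and 232 CPM at 3 h, 700, 392 and 405 at 12 h, then 6.94, 6.21 and 5.86 at 3 d. In CH, Kif11 was at 439, 406 and 503 CPM at 3 h, 87.1, 80.6 and 85.5 at 12 h, then 140, 127 and 133 at 3 d. For Kif11, every sample of OS 12 h, AD 12 h, CH 3 d and all groups at 3 h lay above the highest CON sample, every sample of OS 3 d and AD 3 d lay below the lowest and CH 12 h overlapped CON. The Kif11 OS log2 fold change against CON was 1.82 at 3 h (adjusted p = 3.1e-10, SE 0.17, and 2.07 without replicate 3), 3.11 at 12 h (adjusted p = 1.9e-15) and -2.61 at 3 d (adjusted p = 1.6e-13). The Kif11 AD log2 fold change against CON was 1.56 at 3 h (adjusted p = 7.8e-09), 2.53 at 12 h (adjusted p = 4.9e-13, and 2.26 without replicate 1) and -3.51 at 3 d (adjusted p = 1.2e-16, and -3.46 without replicate 3). The Kif11 CH log2 fold change against CON was 2.43 at 3 h (adjusted p = 6.8e-13). Kif22, a chromosome-bound kinesin, was at 44.5, 44 and 40.8 CPM in CON, 391, 424 and 403 at OS 12 h and 66, 59.4 and 56.4 at CH 12 h. At AD 12 h, Kif22 was at 362, 167 and 166 CPM, so that replicate 1 again exceeded the other two, and without it the log2 fold change against CON was 1.93, from 2.30.

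**Figure D3:**
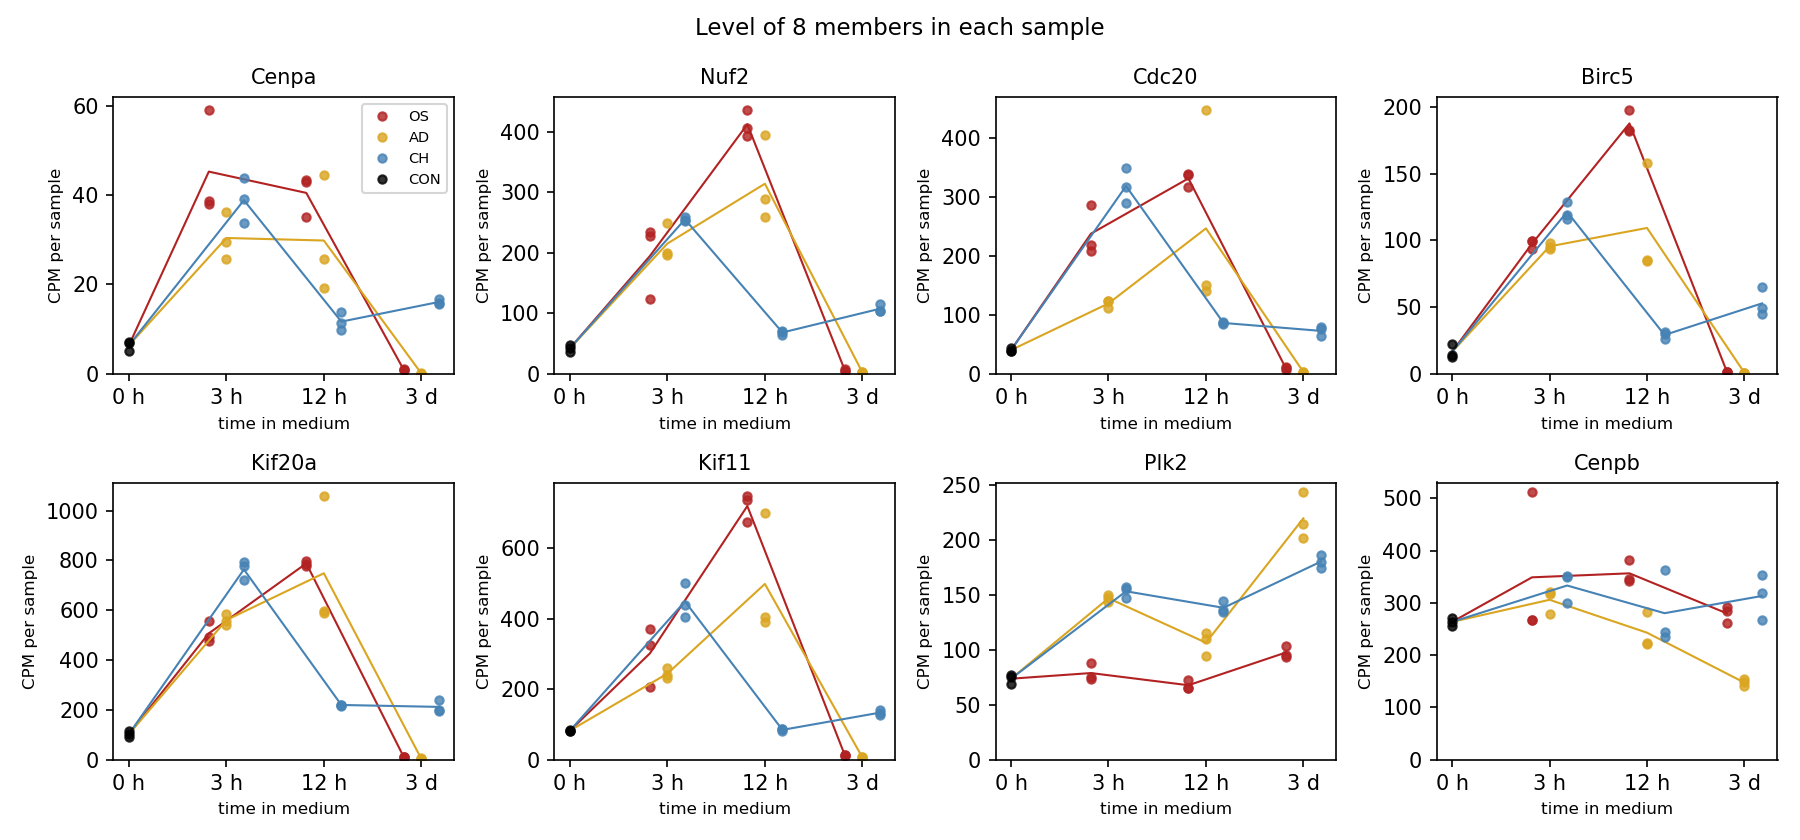
CPM (vertical axis, from 0) of 8 members in each of the 30 samples by time in medium (horizontal axis), with points for samples and lines through group means. Cenpa, Nuf2, Cdc20, Birc5, Kif20a and Kif11 at AD 3 d lie near 0, and Plk2 at AD 3 d lies at 214, 201 and 243 CPM.

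Condensin, cohesin and other SMC proteins with topoisomerase II had 10 names, of which 8 were tested. Called higher were 2 at OS 3 h (11.7%), 4 at OS 12 h (14.7%), 2 at AD 3 h (12.4%), 2 at AD 12 h (8.14%), 2 at CH 3 h (13.1%) and 1 at CH 3 d (11.6%), and called lower were 1 at OS 3 d (5.29%) and 2 at AD 3 d (9.08%). With single samples left out, moves over 1.5 times gave 2 to 4 at AD 12 h and 0 to 1 at CH 3 d called higher and 1 to 2 at OS 3 d and 0 to 1 at CH 3 d called lower. The 1 of 8 at CH 3 d is about the share of all genes. Top2a, the topoisomerase that untangles sister chromatids, was at 2.44, 2.51 and 3.03 CPM in CON, and in OS at 13.9, 12.5 and 24.1 CPM at 3 h, 33.7, 31.1 and 34.1 at 12 h, then 0.597, 0 and 0 at 3 d. In AD, Top2a was at 12.7, 10.7 and 14.6 CPM at 3 h, 26.8, 20.3 and 17.9 at 12 h, then 0.356, 0.177 and 0 at 3 d. In CH, Top2a was at 17.5, 15.4 and 14.6 CPM at 3 h, 2.31, 2.8 and 3.01 at 12 h, then 2.56, 2.43 and 3.78 at 3 d. For Top2a, every sample of OS 12 h, AD 12 h and all groups at 3 h lay above the highest CON sample, every sample of OS 3 d and AD 3 d lay below the lowest and CH 12 h and CH 3 d overlapped CON. The Top2a OS log2 fold change against CON was 2.23 at 3 h (adjusted p = 6.2e-09, SE 0.24, and 1.96 without replicate 3), 3.22 at 12 h (adjusted p = 2.1e-12) and -1.64 at 3 d (adjusted p = 2.8e-06). The Top2a AD log2 fold change against CON was 1.89 at 3 h (adjusted p = 1.4e-07), 2.62 at 12 h (adjusted p = 4.3e-10, and 2.46 without replicate 1) and -1.64 at 3 d (adjusted p = 2.1e-06, and -1.53 without replicate 3). The Top2a CH log2 fold change against CON was 2.20 at 3 h (adjusted p = 8e-09). Top2a in CH was called against CON at 3 h only. Smc1a, a cohesin subunit, was at 74.1, 62.4 and 66.1 CPM in CON, and in OS at 70.8, 79.8 and 63.8 CPM at 3 h, 133, 123 and 133 at 12 h, then 72.8, 91.3 and 83.9 at 3 d. In AD, Smc1a was at 87, 99.6 and 84 CPM at 3 h, 143, 116 and 119 at 12 h, then 86.7, 89.9 and 99.8 at 3 d. In CH, Smc1a was at 83.3, 83.4 and 80.6 CPM at 3 h, 67.2, 66.5 and 80.2 at 12 h, then 60.8, 57.9 and 52.9 at 3 d. For Smc1a, every sample of OS 12 h, AD 3 h, AD 12 h, AD 3 d and CH 3 h lay above the highest CON sample, every sample of CH 3 d lay below the lowest and the other groups overlapped CON. Smc1a was not called against CON with all samples, although the 12 h samples of OS and AD were its highest. Smc1a became called at OS 12 h without CON replicate 1 (1.0). Smc6, a subunit of the complex that acts in DNA repair, was at 15.6, 12.3 and 11.8 CPM in CON, and in OS at 17.9, 20.9 and 21 CPM at 3 h, 33.6, 25.9 and 31.8 at 12 h, then 16.4, 19.2 and 25.2 at 3 d. In AD, Smc6 was at 14.8, 16.7 and 12 CPM at 3 h, 23.4, 23.6 and 29.2 at 12 h, then 13.9, 14.2 and 16.3 at 3 d. In CH, Smc6 was at 18.4, 16.6 and 19.4 CPM at 3 h, 16.9, 13.9 and 13.9 at 12 h, then 12.1, 10.8 and 9.34 at 3 d. For Smc6, every sample of OS 3 h, OS 12 h, OS 3 d, AD 12 h and CH 3 h lay above the highest CON sample, while the other groups overlapped CON. The Smc6 OS log2 fold change against CON was 1.14 at 12 h (adjusted p = 2.2e-06, SE 0.17). Smc6 was not called at OS 12 h with median-ratio scaling (0.82) or edgeR (0.80). Smc6 became called at AD 12 h without CON replicate 1 (1.01).

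Of 5 names for entry into mitosis, 2 were tested. Ccna2, cyclin A2, was at 0.43, 1.11 and 1.06 CPM in CON, and in OS at 6.74, 5.85 and 4.7 CPM at 3 h, 9.04, 8.22 and 10.8 at 12 h, then 0, 0 and 0.301 at 3 d. In AD, Ccna2 was at 7.41, 7.55 and 8.92 CPM at 3 h, 3.95, 4.05 and 8.33 at 12 h, then 0.356, 0 and 0.317 at 3 d. In CH, Ccna2 was at 4.65, 4.11 and 5.9 CPM at 3 h, 1.88, 0.312 and 0.634 at 12 h, then 1.03, 0.663 and 0.667 at 3 d. For Ccna2, every sample of OS 12 h, AD 12 h and all groups at 3 h lay above the highest CON sample, while CH 12 h and CH 3 d overlapped CON. As OS 3 d and AD 3 d and at least 1 CON sample had 3 reads or fewer, they were not ordered. The Ccna2 OS log2 fold change against CON was 1.87 at 3 h (adjusted p = 1.8e-06, SE 0.28, and 1.98 without replicate 3) and 2.49 at 12 h (adjusted p = 8.6e-09). The Ccna2 AD log2 fold change against CON was 2.28 at 3 h (adjusted p = 6.2e-08) and 1.74 at 12 h (adjusted p = 7.9e-06, and 1.90 without replicate 1). The Ccna2 CH log2 fold change against CON was 1.67 at 3 h (adjusted p = 1.1e-05). Ccna2 became called at AD 3 d with pseudocount 0.1 (-1.77), and at OS 3 d with edgeR (-3.04) or pseudocount 0.1 (-2.51). Cdc25b, a phosphatase that activates cyclin-dependent kinase, was at 1.15, 0.557 and 0.303 CPM in CON, and in OS at 0.627, 0.158 and 0.968 CPM at 3 h, 1.21, 1.64 and 1.07 at 12 h, then 0.448, 1.56 and 0.904 at 3 d. In AD, Cdc25b was at 0.774, 0 and 1.19 CPM at 3 h, 1.32, 0 and 1.67 at 12 h, then 0, 0.177 and 0 at 3 d. In CH, Cdc25b was at 1.5, 1.32 and 1.48 CPM at 3 h, 0.867, 0 and 0.317 at 12 h, then 0.513, 0.442 and 0.222 at 3 d. For Cdc25b, every sample of CH 3 h lay above the highest CON sample, while OS 3 h, OS 12 h, OS 3 d, AD 3 h, AD 12 h and CH 12 h overlapped CON. As AD 3 d and CH 3 d and at least 1 CON sample had 3 reads or fewer, they were not ordered. Cdc25b was near the level of 3 reads in many samples and was called in no comparison with CON. Aurka, the spindle pole kinase, was not tested and had at most 2 reads and 0.277 CPM in any sample.

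All 5 names for spindle assembly and cytokinesis were tested. Called higher were 2 at OS 3 h (11.7%), 4 at OS 12 h (14.7%), 3 at AD 3 h (12.4%), 3 at AD 12 h (8.14%), 4 at CH 3 h (13.1%), 1 at CH 12 h (9.44%) and 1 at CH 3 d (11.6%), and called lower were 1 at OS 3 d (5.29%) and 1 at AD 3 d (9.08%). With single samples left out, moves over 1.5 times gave 1 to 2 at CH 3 d called higher and 0 to 1 at OS 3 d called lower. Fam83d, a spindle protein that helps to align chromosomes, was at 17.9, 15.5 and 15.8 CPM in CON, and in OS at 121, 124 and 140 CPM at 3 h, 227, 240 and 233 at 12 h, then 6.71, 9.83 and 5.57 at 3 d. In AD, Fam83d was at 109, 112 and 108 CPM at 3 h, 199, 71.6 and 75.5 at 12 h, then 3.38, 3.55 and 1.43 at 3 d. In CH, Fam83d was at 195, 201 and 182 CPM at 3 h, 39.6, 35.1 and 33.1 at 12 h, then 44.6, 33.2 and 42.5 at 3 d. For Fam83d, every sample of CH 3 d and all groups at 3 h and 12 h lay above the highest CON sample, while every sample of OS 3 d and AD 3 d lay below the lowest. The Fam83d OS log2 fold change against CON was 2.90 at 3 h (adjusted p = 6.6e-11, SE 0.25, and 2.84 without replicate 3), 3.75 at 12 h (adjusted p = 1.5e-13) and -1.08 at 3 d (adjusted p = 0.0011). The Fam83d AD log2 fold change against CON was 2.67 at 3 h (adjusted p = 4e-10), 2.58 at 12 h (adjusted p = 1.2e-09, and 2.10 without replicate 1) and -2.25 at 3 d (adjusted p = 1.4e-08, and -1.96 without replicate 3). The Fam83d CH log2 fold change against CON was 3.48 at 3 h (adjusted p = 1.2e-12), 1.09 at 12 h (adjusted p = 0.0008) and 1.23 at 3 d (adjusted p = 0.00018). Fam83d had the largest rise of any member at OS 12 h on the log2(CPM + 1) scale, which understates rises of lower members such as Tpx2 and Cenpt. Its CH 12 h call was not made with median-ratio scaling (0.86) or edgeR (0.87), and its OS 3 d call was lost without OS 3 d replicate 3 (-0.92). Tpx2, a spindle assembly factor and activator of Aurora A, was at 0.286, 0.139 and 0.758 CPM in CON, and in OS at 5.8, 4.9 and 2.21 CPM at 3 h, 8.74, 7.62 and 5.94 at 12 h, then 0.298, 0 and 0 at 3 d. In AD, Tpx2 was at 3.32, 4.09 and 3.87 CPM at 3 h, 6.29, 2.95 and 3.52 at 12 h, then 0.712, 0 and 0 at 3 d. In CH, Tpx2 was at 4.95, 7.05 and 4.06 CPM at 3 h, 0.433, 0.312 and 1.11 at 12 h, then 2.05, 1.33 and 1.56 at 3 d. For Tpx2, every sample of OS 12 h, AD 12 h, CH 3 d and all groups at 3 h lay above the highest CON sample, while AD 3 d and CH 12 h overlapped CON. As OS 3 d and at least 1 CON sample had 3 reads or fewer, they were not ordered. The Tpx2 OS log2 fold change against CON was 1.88 at 3 h (adjusted p = 4.9e-06, SE 0.30, and 2.21 without replicate 3) and 2.61 at 12 h (adjusted p = 1.3e-08). The Tpx2 AD log2 fold change against CON was 1.79 at 3 h (adjusted p = 1.1e-05) and 1.89 at 12 h (adjusted p = 7e-06, and 1.62 without replicate 1). The Tpx2 CH log2 fold change against CON was 2.18 at 3 h (adjusted p = 4.6e-07). Tpx2 became called at CH 3 d with edgeR (1.96), pseudocount 0.1 (2.0), without CH 3 d replicate 2 (1.03) or CON replicate 3 (1.12).

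The rule also took 8 names outside these roles, of which 4 were tested, Plk2, Cdca7, Cdca3 and Cdca7l. Plk2, a polo-like kinase known as an early response gene rather than a mitotic one, was at 75.2, 68.4 and 77 CPM in CON, and in OS at 87.7, 75.4 and 72.9 CPM at 3 h, 64.9, 65.5 and 72.4 at 12 h, then 93.5, 103 and 95.5 at 3 d. In AD, Plk2 was at 143, 150 and 147 CPM at 3 h, 93.8, 115 and 110 at 12 h, then 214, 201 and 243 at 3 d. In CH, Plk2 was at 155, 157 and 147 CPM at 3 h, 144, 136 and 134 at 12 h, then 174, 186 and 180 at 3 d. For Plk2, every sample of AD 3 h, AD 12 h, CH 3 h, CH 12 h and all groups at 3 d lay above the highest CON sample, while OS 3 h and OS 12 h overlapped CON. The Plk2 AD log2 fold change against CON was 1.56 at 3 d (adjusted p = 1.1e-13, SE 0.10, and 1.48 without replicate 3). The Plk2 CH log2 fold change against CON was 1.05 at 3 h (adjusted p = 5.6e-10) and 1.28 at 3 d (adjusted p = 7.2e-12). Plk2 in OS was not called at any time, and its rise at CH 3 h was not called with median-ratio scaling (0.71), edgeR (0.69) or without CON replicate 2 (1.0). Plk2 became called at AD 3 h without AD 3 h replicate 1 (1.01), CON replicate 1 (1.01) or CON replicate 3 (1.02). Cdca7, a chromatin protein whose gene is a target of MYC and E2F, was at 5.59, 6.41 and 5.91 CPM in CON, and in OS at 55.5, 52.8 and 63.5 CPM at 3 h, 84.8, 90.4 and 88.5 at 12 h, then 2.24, 4.99 and 1.66 at 3 d. In AD, Cdca7 was at 31.7, 37.6 and 34.6 CPM at 3 h, 20.2, 20.3 and 15.5 at 12 h, then 0.356, 0.887 and 1.74 at 3 d. In CH, Cdca7 was at 51.4, 47.4 and 41.1 CPM at 3 h, 8.09, 7.64 and 8.24 at 12 h, then 1.8, 1.77 and 2.67 at 3 d. For Cdca7, every sample of all groups at 3 h and 12 h lay above the highest CON sample, while every sample of all groups at 3 d lay below the lowest. The Cdca7 OS log2 fold change against CON was 3.06 at 3 h (adjusted p = 5.5e-12, SE 0.23, and 2.98 without replicate 3) and 3.67 at 12 h (adjusted p = 6.1e-14). The Cdca7 AD log2 fold change against CON was 2.35 at 3 h (adjusted p = 1.4e-09), 1.49 at 12 h (adjusted p = 6.5e-06, and 1.43 without replicate 1) and -1.86 at 3 d (adjusted p = 1.4e-07, and -2.12 without replicate 3). The Cdca7 CH log2 fold change against CON was 2.77 at 3 h (adjusted p = 4.3e-11) and -1.19 at 3 d (adjusted p = 0.00012). Cdca7 became called at OS 3 d with edgeR (-1.17), median-ratio scaling (-1.03), pseudocount 0.1 (-1.14) or without OS 3 d replicate 2 (-1.25). Cdca7l was at 0.859, 1.11 and 1.21 CPM in CON and 6.03, 4.48 and 5.18 CPM at OS 12 h, where it was called higher (1.59). It was listed at 0 in all 3 CH 3 d samples, and its call at CH 3 d was lost without CON replicate 3 (-0.99). Calls of Cdca3 against CON included rises at OS 12 h (2.74), AD 3 h (1.68), AD 12 h (1.95) and CH 3 h (1.92). They also included falls at OS 3 d (-1.27) and AD 3 d (-1.19).

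Among 12 other kinesins, 4 were tested. Kif3b, a subunit of the kinesin that serves cilia, was at 3.58, 2.51 and 3.18 CPM in CON, and in OS at 4.23, 6.64 and 2.07 CPM at 3 h, 3.92, 3.44 and 2.59 at 12 h, then 2.09, 2.34 and 2.86 at 3 d. In AD, Kif3b was at 3.43, 3.93 and 3.27 CPM at 3 h, 3.66, 3.31 and 1.85 at 12 h, then 2.31, 2.13 and 5.7 at 3 d. In CH, Kif3b was at 1.35, 3.82 and 3.32 CPM at 3 h, 3.18, 1.87 and 3.8 at 12 h, then 2.05, 2.65 and 2.22 at 3 d. For Kif3b, all 9 groups overlapped CON. Kif3b was not called against CON. Kif1b, a motor that carries mitochondria and vesicles, was at 1.29, 0.975 and 2.58 CPM in CON, and in OS at 1.72, 1.42 and 3.18 CPM at 3 h, 2.26, 3.29 and 2.74 at 12 h, then 2.39, 1.4 and 1.36 at 3 d. In AD, Kif1b was at 4.31, 4.25 and 1.93 CPM at 3 h, 2.34, 4.97 and 4.44 at 12 h, then 3.2, 2.13 and 7.44 at 3 d. In CH, Kif1b was at 1.5, 1.32 and 2.46 CPM at 3 h, 2.02, 0.779 and 0.634 at 12 h, then 0.256, 0.663 and 2 at 3 d. For Kif1b, all 9 groups overlapped CON. Kif1b was not called against CON with all samples. Kif1b became called at AD 12 h without AD 12 h replicate 1 (1.17) or CON replicate 3 (1.17), and at AD 3 d with edgeR (1.56), median-ratio scaling (1.12), without AD 3 d replicate 2 (1.24) or CON replicate 3 (1.18), and at AD 3 h without AD 3 h replicate 3 (1.06) or CON replicate 3 (1.03). Kif1a, a neuronal vesicle motor, was at 0.143, 0.139 and 0 CPM in CON and in CH at 2.7, 2.06 and 0.738 CPM at 3 h, 2.31, 4.05 and 2.53 at 12 h, then 4.36, 5.97 and 3.78 at 3 d. Every Kif1a value in CH exceeded the CON samples. The Kif1a CH log2 fold change by limma was 1.30 at 3 h (adjusted p = 0.00022, SE 0.27), 1.83 at 12 h (adjusted p = 2.4e-06) and 2.37 at 3 d (adjusted p = 2.2e-08). In AD, Kif1a was at 0.731, 1.47 and 1.48 CPM at 12 h, then 2.31, 2.13 and 1.27 at 3 d, and it was called higher at both times, with log2 fold changes of 1.18 without AD 12 h replicate 1 and 1.56 without AD 3 d replicate 3. Kif1a was not called at AD 12 h with median-ratio scaling (0.95), without AD 12 h replicate 2 (0.92), AD 12 h replicate 3 (0.92) or CON replicate 3 (0.95). The CON values of Kif1a are below those of 3 reads, so its fitted folds depend on the pseudocount.

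Consecutive time points were compared within each lineage. The CON means did not enter, but the fit over all 10 groups used the CON samples for the SE. From 3 h to 12 h of OS, of the 41 members tested, 7 were higher, against 4.7% of all genes, and 0 were lower, against 3.12% of all genes (1 at an unadjusted p under 0.05 and 0 by edgeR). The largest rises on the log2(CPM + 1) scale were Cdca3 with a log2 fold change of 2.05, Cdca7l with 1.48 and Mad2l1 with 1.38. edgeR called 4 higher, without Nuf2 (0.92), and Mad2l1 was not called with pseudocount 0.1 (1.51, adjusted p = 0.068). Without OS 3 h replicate 3 limma called 6, with Mad2l1 (0.90) and Nuf2 (0.84) no longer and Top2a (1.26) newly among them. From 12 h to 3 d of OS, 1 was higher, against 9.67% of all genes, and 27 were lower, against 13.5% of all genes. Birc5 fell by 6.32, Kif20a fell by 6.10 and Nuf2 fell by 6.0 on the log2 scale. Kif5a, a neuronal transport kinesin, was the 1 member higher with 1.09, from 1.05, 0 and 0 to 1.94, 1.87 and 1.36 CPM, a call lost without OS 12 h replicate 2 or 3 (0.92 in each case). From 3 h to 12 h of AD, 0 were higher, against 5.13% of all genes (12 at an unadjusted p under 0.05 and 4 by edgeR), and 1 was lower, against 7.82% of all genes. The share was below that of all genes in both directions. Cdca7l was the 1 member lower with -1.06, a call lost without replicate 3 of AD 12 h (-0.74) or AD 3 h (-0.89). edgeR called 4 higher and 1 lower. Leaving out AD 12 h replicate 1, 2 or 3 gave 1, 4 and 3 higher, and leaving out AD 3 h replicate 1, 2 or 3 gave 1, 2 and 1. Without AD 12 h replicate 2 or AD 3 h replicate 2, 2 members were lower. From 12 h to 3 d of AD, 1 was higher, against 5.18% of all genes, and 22 were lower, against 10.8% of all genes. Kif20a fell by 7.46, Nuf2 fell by 6.69 and Birc5 fell by 6.07 on the log2 scale. Without AD 12 h replicate 1, or without AD 3 d replicate 3, 22 members were lower and 0 higher, and in the first case Anln (-0.92) was no longer and Cenpk (-1.06) newly among the lower. Plk2 was the 1 member higher with 1.04 (0.95 and 0.96 without these samples), and 2 were higher without AD 12 h replicate 2. From 3 h to 12 h of CH, 0 were higher, against 1.74% of all genes (0 at an unadjusted p under 0.05 and 0 by edgeR), and 22 were lower, against 5.94% of all genes. Cdca7 fell by 2.40, Fam83d fell by 2.39 and Kif11 fell by 2.39 on the log2 scale. From 12 h to 3 d of CH, 0 were higher, against 7.98% of all genes (6 at an unadjusted p under 0.05 and 1 by edgeR), and 1 was lower, against 5.23% of all genes. Cdca7 was the 1 member lower with -1.56. Median-ratio scaling and edgeR each called 1 higher and 1 lower. Without CH 12 h replicate 1, CH 3 d replicate 2 or CH 3 d replicate 3, 2, 3 and 2 members were lower.

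The lineages were compared directly with each other at each time. In OS 3 h against AD 3 h, 0 were higher, against 2.77% of all genes (4 at an unadjusted p under 0.05 and 1 by edgeR), and 0 were lower, against 4.88% of all genes (7 at an unadjusted p under 0.05 and 0 by edgeR). Without AD 3 h replicate 1, OS 3 h replicate 1 or OS 3 h replicate 2, 1 member was higher, and 1, 2 and 1 were lower. In OS 3 h against CH 3 h, 0 were higher, against 2.25% of all genes (1 at an unadjusted p under 0.05 and 0 by edgeR), and 1 was lower, against 5.07% of all genes. Cdca3 was the 1 member lower with -1.22, a call that was not made with edgeR (-1.07, adjusted p = 0.059), with pseudocount 0.1 (-1.51, adjusted p = 0.063) or without OS 3 h replicate 3 (-0.68), where Kif1a (-1.08) was called instead. Without OS 3 h replicate 1 or 2, or CH 3 h replicate 3, 2 members were lower. In CH 3 h against AD 3 h, 2 were higher, against 5.13% of all genes, and 1 was lower, against 4.22% of all genes. Cdc20 was higher in CH with 1.41 and Kif1a with 1.22, and Ube2c was lower with -1.12. The Kif1a call was lost without CH 3 h replicate 1 (1.0), which left 1 member higher, and the Ube2c call without AD 3 h replicate 1 (-0.91) or with pseudocount 0.1 (-1.72, adjusted p = 0.13), which left none lower by limma.

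At 12 h, 25 members were lower in CH than in OS and 20 than in AD. In OS 12 h against CH 12 h, of the 41 members, 25 were higher, against 8.87% of all genes, and 2 were lower, against 7.08% of all genes. Cdca7 was higher in OS with 3.31, Top2a with 3.20 and Kif11 with 3.08. Kif1a (-1.61) and Plk2 (-1.02) were lower in OS, and the Plk2 call was lost without CH 12 h replicate 1 (-0.99) or OS 12 h replicate 1 (-0.99) or 2 (-1.0), which left 1 lower. In CH 12 h against AD 12 h, 0 were higher, against 7.04% of all genes (2 at an unadjusted p under 0.05 and 0 by edgeR), and 20 were lower, against 6.56% of all genes. Top2a was lower in CH with -2.60, Kif11 with -2.50 and Nuf2 with -2.17. Without AD 12 h replicate 1, 17 members were lower, and Cdc20 (-0.75), Cenpa (-0.89) and Ube2c (-0.90) were no longer called. In OS 12 h against AD 12 h, 3 were higher, against 6.99% of all genes, and 0 were lower, against 6.17% of all genes (2 at an unadjusted p under 0.05 and 1 by edgeR). Cdca7 was higher in OS with 2.19, Cdca7l with 1.75 and Fam83d with 1.18. Without AD 12 h replicate 1, 8 members were higher, the 5 new ones being Birc5 (1.13), Cdc20 (1.18), Cenpm (1.07), Cenpn (1.09) and Kif22 (1.28), so that this count depended on that sample. edgeR called 2 higher and 1 lower, and Fam83d was not called with edgeR (0.90) or without AD 12 h replicate 2 (0.92) or 3 (0.96).

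At 3 d, 12 members were higher in CH than in OS and 13 than in AD. In OS 3 d against CH 3 d, of the 41 members, 0 were higher, against 8.55% of all genes (4 at an unadjusted p under 0.05 and 0 by edgeR), and 12 were lower, against 11.1% of all genes. Birc5 was lower in OS with -4.48, Kif20a with -4.20 and Nuf2 with -4.06. Without CH 3 d replicate 3, 1 member was higher. In CH 3 d against AD 3 d, 13 were higher, against 16.5% of all genes, and 2 were lower, against 9.01% of all genes. Kif20a was higher in CH with 5.69, Nuf2 with 5.17 and Birc5 with 5.08. Ncaph2, a condensin II subunit (-1.41), and Kif1b (-1.38) were lower in CH, and without AD 3 d replicate 3 the Kif1b call was lost (-0.98), which left 1 lower. In OS 3 d against AD 3 d, 5 were higher, against 9.21% of all genes, and 3 were lower, against 4.52% of all genes. Kif20a was higher in OS with 1.49, Cdc20 with 1.46 and Kif22 with 1.33. Kif1a (-1.27), Incenp (-1.17) and Plk2 (-1.16) were lower. Median-ratio scaling gave 3 higher and 5 lower, where the median of all genes moved by -0.27, but edgeR, with a shift of -0.26, gave 8 and 6, and pseudocount 0.1 gave 10 and 4. Without AD 3 d replicate 3, 3 were higher and 3 lower, with Kif22 (0.82), Fam83d (0.88) and Nuf2 (0.86) no longer and Cdca7 (1.22) newly called. The Incenp call was lost without OS 3 d replicate 3 (-0.90).

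Further genes of the cell cycle lay outside the rule. Of 52 other mitosis genes, 22 were listed and 13 tested. Called higher were 10 at OS 3 h (11.7%), 13 at OS 12 h (14.7%), 8 at AD 3 h (12.4%), 11 at AD 12 h (8.14%), 11 at CH 3 h (13.1%), 1 at CH 12 h (9.44%) and 4 at CH 3 d (11.6%), and called lower were 6 at OS 3 d (5.29%) and 7 at AD 3 d (9.08%). The 1 at CH 12 h, about the share of all genes, was Ckap4, a membrane protein of the endoplasmic reticulum rather than a mitosis gene, which is also counted at OS 12 h, CH 3 h, CH 3 d and AD 3 d. Ckap4 was not called at OS 12 h with edgeR (0.71) or median-ratio scaling (0.78), and at CH 3 h with edgeR (0.71) or median-ratio scaling (0.73). Hmmr, a spindle pole protein, was at 33.5, 31.9 and 31.5 CPM in CON, 262, 226 and 259 at OS 12 h, 312, 157 and 157 at AD 12 h and 45.2, 42.2 and 49 at CH 12 h. Hmmr at 3 d was at 7.46, 9.21 and 8.74 CPM in OS, 2.49, 3.19 and 2.38 in AD and 94.1, 86.7 and 81.6 in CH. Every OS and AD sample of Hmmr at 3 d lay below the CON samples and every CH sample above them, and Hmmr was chosen here after its values were seen. Of 16 E2F, MuvB and FOXM1 regulators, 3 were listed and 2 tested. Both rose at OS 12 h (14.7%) and 1 of them, Foxm1, at OS 3 h (11.7%). Under at least 1 other setting, Foxm1 was also called at AD 3 h, AD 12 h, CH 3 h and CH 3 d. Foxm1, a transcription factor of G2 and M phase genes, was listed at 0 in the CON samples and at 1.05, 2.69 and 2.44 CPM at OS 12 h. E2f2, an activator of S phase genes, was at 0.573, 0.696 and 0.758 CPM in CON and 3.92, 3.44 and 3.5 CPM at OS 12 h. Of 8 G1/S cyclins and kinases, 1 was tested. Ccnd2, cyclin D2, was at 1, 1.39 and 1.36 CPM in CON, 29.7, 27.9 and 31.8 at OS 3 d, 6.77, 9.75 and 1.74 at AD 3 d and 48.2, 37.6 and 43.8 at CH 3 d. It rose at 3 d in each lineage, and replicate 3 of AD 3 d was the lowest of these samples. Ccnd2 was not called at AD 3 d without AD 3 d replicate 2 (1.04). Under at least 1 other setting, Ccnd2 was also called at AD 12 h. Of 11 inhibitors and pocket proteins, 2 were tested. Rbl2, the pocket protein of resting cells, was at 43.7, 49.2 and 48.8 CPM in CON, 16.3, 17.7 and 12 at OS 3 h, 16, 18.1 and 18.1 at AD 3 h and 21.7, 20.7 and 13.9 at CH 3 h. Rbl2 at 12 h was at 22.1, 30.8 and 36.1 CPM in OS, 63.9, 70 and 68.3 in AD and 23.7, 22.9 and 21.5 in CH. Rbl2 at 3 d was at 60.3, 66.6 and 75.3 CPM in OS, 62.9, 60.3 and 70.8 in AD and 51.3, 47.1 and 46.5 in CH. It fell at 3 h in each lineage and at CH 12 h, while every sample at AD 12 h and at 3 d of OS and AD lay above CON without reaching the fold threshold. Cdkn2a, which encodes inhibitors of cell division, was at 0.286, 0.139 and 0.303 CPM in CON and 1.32, 1.66 and 2.41 CPM at AD 12 h, where it rose. Rbl2 was not called at CH 12 h without CH 12 h replicate 3 (-0.99), CON replicate 2 (-0.99) or CON replicate 3 (-1.0). Under at least 1 other setting, Rbl2 was also called lower at OS 12 h. Cdkn2a was not called at AD 12 h without AD 12 h replicate 3 (1.0). Under at least 1 other setting, Cdkn2a was also called at OS 3 h, OS 12 h, OS 3 d, AD 3 h and CH 12 h. Of 15 names of the anaphase-promoting complex, 6 were listed and 4 tested. Of 96 tests (4 genes in 24 comparisons) limma called 0 higher and 0 lower, against 8.17% and 6.73% of all genes over these comparisons, with 32 and 17 at an unadjusted p under 0.05 and 1 and 1 by edgeR.

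Promoters are shown because 27 of the 41 members tested were called higher at OS 12 h, against 14.7% of all genes. Shared regulation was not tested. RefSeq windows of assembly GRCr8, 250 bases before to 50 after the gene start, were matched by symbol for 55 of the 67 names. Aurkaip1, Aurkb, Ccna2, Cenpt, Incenp, Kif19, Kif1bp, Kif21b, Kif5a, Plk5, Tpx2 and Ube2c were not matched. The cell cycle genes homology region was searched as TTTGAA or TTTAAA and the CCAAT box as CCAAT, on both strands. The first was in 45.5% of member promoters (25 of 55) and 27.9% of all 27457 promoters, and the CCAAT box in 47.3% (26 of 55) and 37.7%. Both kinds were in 23.6% of member promoters and 11.1% of all. A match describes these letters only. The windows of 4 members that rose at OS 12 h and of Cenpb, which was not called against CON, follow with matches in capitals. The 5 were picked by hand after expression values were seen and do not stand for the other members. TTTGAA was in 34.5% of member promoters (19 of 55) and in 18.1% of all. TTTAAA was in 16.4% of member promoters (9 of 55) and in 13.5% of all.
Cdc20 (chr5:137255750-137256049, minus strand): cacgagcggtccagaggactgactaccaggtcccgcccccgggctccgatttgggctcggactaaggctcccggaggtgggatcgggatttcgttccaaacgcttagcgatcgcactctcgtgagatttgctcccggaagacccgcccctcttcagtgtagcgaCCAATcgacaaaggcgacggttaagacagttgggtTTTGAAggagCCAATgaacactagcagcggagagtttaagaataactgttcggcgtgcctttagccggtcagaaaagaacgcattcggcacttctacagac
Cenpa (chr6:31431503-31431802, minus strand): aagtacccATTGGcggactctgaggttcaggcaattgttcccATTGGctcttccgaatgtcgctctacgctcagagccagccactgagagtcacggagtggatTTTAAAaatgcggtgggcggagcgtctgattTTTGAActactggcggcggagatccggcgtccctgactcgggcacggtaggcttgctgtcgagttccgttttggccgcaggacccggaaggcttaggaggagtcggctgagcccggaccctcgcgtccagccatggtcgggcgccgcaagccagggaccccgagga
Nuf2 (chr13:84255549-84255848, minus strand): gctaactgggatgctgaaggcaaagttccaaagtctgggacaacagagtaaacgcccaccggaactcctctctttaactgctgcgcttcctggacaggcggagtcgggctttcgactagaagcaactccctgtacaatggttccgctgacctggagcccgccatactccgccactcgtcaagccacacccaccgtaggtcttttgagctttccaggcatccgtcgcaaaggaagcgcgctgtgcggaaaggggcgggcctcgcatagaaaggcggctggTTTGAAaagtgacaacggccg
Birc5 (chr10:103571896-103572195, plus strand): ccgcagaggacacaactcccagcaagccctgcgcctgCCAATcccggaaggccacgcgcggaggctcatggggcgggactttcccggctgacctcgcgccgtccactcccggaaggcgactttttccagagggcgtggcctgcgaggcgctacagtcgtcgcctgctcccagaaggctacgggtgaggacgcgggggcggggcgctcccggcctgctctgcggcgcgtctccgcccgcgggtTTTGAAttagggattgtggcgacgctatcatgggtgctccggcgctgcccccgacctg
Cenpb (chr3:138852747-138853046, minus strand): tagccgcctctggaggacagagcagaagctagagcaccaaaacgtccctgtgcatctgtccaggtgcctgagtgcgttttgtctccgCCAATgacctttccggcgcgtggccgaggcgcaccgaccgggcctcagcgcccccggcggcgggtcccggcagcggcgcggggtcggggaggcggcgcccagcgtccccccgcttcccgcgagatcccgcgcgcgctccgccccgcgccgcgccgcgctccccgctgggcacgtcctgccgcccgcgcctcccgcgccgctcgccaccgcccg

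Cdc20, Cenpa, Nuf2 and Birc5 each held TTTGAA, on the strand shown or its complement, and Cenpb held only CCAAT.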

How the data were processed

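RNA-seq values of 30 samples were analysed. The authors deposited 1 value per gene row under the name FPKM, but the deposited values behave as CPM: 100% of them are whole multiples (tolerance 0.1 read) of the step for 1 read in each sample, which gave back reads and totals. The submitters' processing notes name Trimmomatic, HISAT2 and StringTie; versions and build are not given in the sources used here. Rows of 1 name were summed (11 members, 8 of them tested). Tests used log2(CPM + 1) of genes reaching 1 CPM in 3 or more samples, over 10 groups, with trended empirical Bayes moderation in limma 3.58.1 (R 4.3.3), with Benjamini-Hochberg adjustment. Alternatives were pseudocount 0.1, no filter, median-ratio scaling, edgeR 4.0.16 quasi-likelihood with TMM on recovered reads, a replicate block, each replicate left out and no minimum fold; leaving out 3 samples together, applying the settings to the lists, and sums over reads in listed genes, were chosen after seeing the data. Tables and plots used Python 3.11.15, numpy 2.4.6, pandas 2.3.3 and matplotlib 3.10.9. Full values are given for the 2 members with the highest mean CPM in each role and for Cenpa, Top2a, Cdc20 and Aurka, and for each comparison up to 3 called rises and falls are named; others were chosen after their values were seen. Members and lists were chosen with earlier results of these data known.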

Additional observations from a re-analysis of the deposited data

Results flagged for a closer look

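The effects against CON differed between lineages at the same time for 55 of 180 results (20 genes with full values in 9 comparisons; 30.6%, against 14% over all genes), by direct limma tests of lineage against lineage (log2 difference of 1 or more either way, adjusted p under 0.05). These 20 genes were chosen by mean CPM in each role or by name, so their share does not stand for the 41 members tested. They were not matched to all genes by level, and differences of low genes are understated on this scale. The shares of 30.6% and 14% are therefore not a like comparison. Comparisons at the same time also share groups, so the 180 results are not independent. Counts over the 41 are given above for each comparison. In CH 3 h against AD 3 h, the log2 difference was 1.41 for Cdc20. In OS 12 h against CH 12 h, the log2 difference was 2.58 for Nuf2, 2.66 for Birc5, 2.21 for Incenp, 2.49 for Ccna2, 1.84 for Kif20a, 3.08 for Kif11, -1.02 for Plk2, 3.31 for Cdca7, 2.67 for Fam83d, 2.40 for Tpx2, 1.93 for Cdc20, 1.72 for Cenpa and 3.20 for Top2a. Between OS 12 h and CH 12 h, calls were lost for Plk2 without CH 12 h replicate 1 (-0.99), OS 12 h replicate 1 (-0.99) or OS 12 h replicate 2 (-1.0). Calls between OS 12 h and CH 12 h were gained for Bub3 with pseudocount 0.1 (1.02), without CH 12 h replicate 2 (1.01) or CH 12 h replicate 3 (1.09), Kif1b without CH 12 h replicate 1 (1.13) and Smc6 with pseudocount 0.1 (1.02), without CH 12 h replicate 1 (1.07) or OS 12 h replicate 2 (1.09). In CH 12 h against AD 12 h, the log2 difference was -2.17 for Nuf2, -1.82 for Birc5, -1.90 for Incenp, -1.75 for Ccna2, -1.71 for Kif20a, -2.50 for Kif11, -1.21 for Kif1b, -1.12 for Cdca7, -1.49 for Fam83d, -1.68 for Tpx2, -1.29 for Cdc20, -1.21 for Cenpa and -2.60 for Top2a. Between CH 12 h and AD 12 h, calls were lost for Cdc20 without AD 12 h replicate 1 (-0.75), Cenpa without AD 12 h replicate 1 (-0.89) and Kif1b without AD 12 h replicate 2 (-1.05), CH 12 h replicate 2 (-1.10) or CH 12 h replicate 3 (-1.04). In OS 12 h against AD 12 h, the log2 difference was 2.19 for Cdca7 and 1.18 for Fam83d. Between OS 12 h and AD 12 h, calls were lost for Fam83d with edgeR (0.90), without AD 12 h replicate 2 (0.92) or AD 12 h replicate 3 (0.96). Calls between OS 12 h and AD 12 h were gained for Birc5 without AD 12 h replicate 1 (1.13), Ccna2 without AD 12 h replicate 3 (1.04) and Cdc20 without AD 12 h replicate 1 (1.18). In CH 3 d against AD 3 d, the log2 difference was 1.07 for Cenpb, 5.17 for Nuf2, 5.08 for Birc5, 5.69 for Kif20a, 4.20 for Kif11, -1.38 for Kif1b, 3.48 for Fam83d, 1.14 for Tpx2, 4.36 for Cdc20, 4.01 for Cenpa and 1.73 for Top2a. Between CH 3 d and AD 3 d, calls were lost for Cenpb with median-ratio scaling (0.85), edgeR (0.89) or without CH 3 d replicate 1 (0.98) and Kif1b without AD 3 d replicate 3 (-0.98). Calls between CH 3 d and AD 3 d were gained for Ccna2 with pseudocount 0.1 (1.71) and Cdca7 with pseudocount 0.1 (1.19). In OS 3 d against AD 3 d, the log2 difference was 1.11 for Nuf2, -1.17 for Incenp, 1.49 for Kif20a, -1.16 for Plk2, 1.17 for Fam83d and 1.46 for Cdc20. Between OS 3 d and AD 3 d, calls were lost for Fam83d with median-ratio scaling (0.92), without AD 3 d replicate 3 (0.88) or OS 3 d replicate 2 (0.97), Incenp without OS 3 d replicate 3 (-0.90) and Nuf2 with median-ratio scaling (0.88), without AD 3 d replicate 3 (0.86) or OS 3 d replicate 3 (0.91). Calls between OS 3 d and AD 3 d were gained for Birc5 with pseudocount 0.1 (1.18), Cdc25b with edgeR (3.51), pseudocount 0.1 (2.79) or without OS 3 d replicate 1 (1.06), Cdca7 with edgeR (1.25), pseudocount 0.1 (1.55), without AD 3 d replicate 3 (1.22), OS 3 d replicate 1 (1.06) or OS 3 d replicate 3 (1.20), Cenpa with edgeR (3.34) or pseudocount 0.1 (2.76) and Kif1b with edgeR (-1.60), median-ratio scaling (-1.12) or without AD 3 d replicate 2 (-1.15). In OS 3 d against CH 3 d, the log2 difference was -4.06 for Nuf2, -4.48 for Birc5, -4.20 for Kif20a, -3.30 for Kif11, -2.32 for Fam83d, -1.27 for Tpx2, -2.90 for Cdc20, -3.20 for Cenpa and -1.73 for Top2a. Calls between OS 3 d and CH 3 d were gained for Ccna2 with edgeR (-2.80) or pseudocount 0.1 (-2.45) and Incenp with edgeR (-1.04) or pseudocount 0.1 (-1.03). Calls between OS 3 h and AD 3 h were gained for Cdc20 with edgeR (1.03), without AD 3 h replicate 1 (1.0), OS 3 h replicate 1 (1.06) or OS 3 h replicate 2 (1.03). Calls between OS 3 h and CH 3 h were gained for Plk2 without OS 3 h replicate 1 (-1.03).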

How the results depend on the processing

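Of 207 called log2 fold changes, those of genes with full values and the 3 largest each way in each comparison, 2292 of 2369 values under the alternatives kept their direction and their call, 77 kept the direction but lost the call and none reversed. No filter and the replicate block gave 207 of these values each. Neither setting can alter a fold, so no reversal was possible under them. For 49 further called folds against CON, of other genes named, 18 of 588 values lost the call and none reversed. Same-numbered samples of different groups did not deviate together, with correlations at a median of -0.009 (-0.23 to 0.16, 135 pairs). With the replicate block 27 members were called higher at OS 12 h against CON. No count moved by over 1.5 times there and no named call changed. Each group held each replicate number once, so the block could alter only the SE and p-values, not the folds. These unmoved calls thus say little about pairing. With pseudocount 0.1 there were 1 lower in OS 12 h against CON (from 0), 1 higher in OS 3 d against CON (from 0), 1 lower in CH 12 h against CON (from 0), 4 lower in CH 3 d against CON (from 2), 3 higher in AD 12 h against AD 3 h (from 0), 2 lower in AD 12 h against AD 3 h (from 1), 2 higher in AD 3 d against AD 12 h (from 1), 4 lower in CH 3 d against CH 12 h (from 1), 0 lower in CH 3 h against AD 3 h (from 1), 1 lower in OS 12 h against AD 12 h (from 0), 10 higher in OS 3 d against AD 3 d (from 5) and 1 higher in OS 3 d against CH 3 d (from 0). edgeR on recovered reads gave 1 higher in OS 3 d against CON (from 0), 4 higher in AD 3 d against CON (from 2), 1 higher in CH 12 h against CON (from 4), 4 lower in CH 3 d against CON (from 2), 4 higher in OS 12 h against OS 3 h (from 7), 4 higher in AD 12 h against AD 3 h (from 0), 1 higher in CH 3 d against CH 12 h (from 0), 1 higher in OS 3 h against AD 3 h (from 0), 1 lower in OS 12 h against AD 12 h (from 0), 8 higher in OS 3 d against AD 3 d (from 5) and 6 lower in OS 3 d against AD 3 d (from 3). With no minimum fold change there were 2 higher in OS 3 d against CON (from 0), 4 higher in AD 3 d against CON (from 2), 8 higher in CH 12 h against CON (from 4), 14 higher in CH 3 d against CON (from 9), 15 higher in OS 12 h against OS 3 h (from 7), 2 higher in OS 3 d against OS 12 h (from 1), 8 higher in AD 12 h against AD 3 h (from 0), 5 lower in AD 12 h against AD 3 h (from 1), 5 higher in CH 3 d against CH 12 h (from 0), 5 lower in CH 3 d against CH 12 h (from 1), 2 higher in OS 3 h against AD 3 h (from 0), 5 lower in OS 3 h against AD 3 h (from 0), 6 lower in OS 3 h against CH 3 h (from 1), 5 higher in CH 3 h against AD 3 h (from 2), 10 higher in OS 12 h against AD 12 h (from 3), 2 lower in OS 12 h against AD 12 h (from 0), 2 higher in CH 12 h against AD 12 h (from 0), 11 higher in OS 3 d against AD 3 d (from 5), 5 lower in OS 3 d against AD 3 d (from 3), 3 higher in OS 3 d against CH 3 d (from 0) and 5 lower in CH 3 d against AD 3 d (from 2). Median-ratio scaling gave 1 higher in CH 12 h against CON (from 4), 2 higher in AD 3 d against AD 12 h (from 1), 1 higher in CH 3 d against CH 12 h (from 0), 3 higher in OS 3 d against AD 3 d (from 5) and 5 lower in OS 3 d against AD 3 d (from 3). Leaving out AD 12 h replicate 1, OS 3 h replicate 3 and AD 3 d replicate 3 together, chosen after seeing the data, gave 1 higher in AD 12 h against AD 3 h (from 0), 0 higher in AD 3 d against AD 12 h (from 1), 8 higher in OS 12 h against AD 12 h (from 3), 3 higher in OS 3 d against AD 3 d (from 5) and 1 lower in CH 3 d against AD 3 d (from 2). Leaving out 1 replicate at a time gave ranges of 1 to 3 lower in CH 3 d against CON, 0 to 1 higher in OS 3 d against OS 12 h, 1 to 4 higher in AD 12 h against AD 3 h, 0 to 2 lower in AD 12 h against AD 3 h, 0 to 2 higher in AD 3 d against AD 12 h, 1 to 3 lower in CH 3 d against CH 12 h, 0 to 1 higher in OS 3 h against AD 3 h, 0 to 2 lower in OS 3 h against AD 3 h, 1 to 2 lower in OS 3 h against CH 3 h, 1 to 2 higher in CH 3 h against AD 3 h, 0 to 1 lower in CH 3 h against AD 3 h, 2 to 8 higher in OS 12 h against AD 12 h, 1 to 2 lower in OS 12 h against CH 12 h, 3 to 7 higher in OS 3 d against AD 3 d, 0 to 1 higher in OS 3 d against CH 3 d and 1 to 2 lower in CH 3 d against AD 3 d. The cause of these moves was not tested. Dropping the filter on low values moved no count. Depth limits members of a few reads, such as Cdc25b and Kif1a.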
